A study of Mus musculus with 4 samples.

Results

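Glycolysis splits glucose into pyruvate in the cytosol and yields ATP. Pyruvate is then reduced to lactate by lactate dehydrogenase or carried into mitochondria, where the pyruvate dehydrogenase complex turns it into acetyl-CoA. The pentose phosphate pathway branches off after the hexokinase step: its oxidative arm makes NADPH and its non-oxidative arm exchanges ribose with glycolytic sugars. Resting spleen lymphocytes are known for low glucose use, and B cells and dendritic cells are known to take up more glucose when stimulated through Toll-like receptors. The enzymes described here are 35 genes named by symbol: the hexokinases, the enzymes from glucose phosphate isomerase to lactate dehydrogenase, the enzymes that set the level of the fructose bisphosphate activator of phosphofructokinase, pyruvate dehydrogenase with its kinases, and the pentose phosphate enzymes. The table of 17519 genes holds 34 of them under that symbol, and Pkm under the older symbol Pkm2, matched by gene ID, so all 35 were found.

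The libraries were made from spleen cells of C57Bl.6 mice that carry MHC class II and were taken up with magnetic beads. The PSA day 1 group has 3 libraries (1, 2 and 3) of cells cultured with PSA at 50 µg/ml for 24 h. PSA is polysaccharide A, a capsular sugar polymer of the gut bacterium Bacteroides fragilis. The day 0 group has 1 library of freshly isolated cells that got no PSA. The comparison asks which genes differ in antigen presenting cells after a day with PSA. No library of cells kept for a day without PSA was analysed here, so PSA and the day in culture cannot be told apart. Whether the PSA day 1 libraries stem from separate mice or cultures is not stated, so a p-value reflects only how far these 3 libraries vary, and that variation may be technical. In such bulk RNA, a change in the share of a cell type and a change in RNA per cell cannot be told apart.

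The day 0 library stands apart from the others. Counting the FPKM step that 1 sequenced fragment is worth put the PSA day 1 libraries at 14.3, 15.9 and 22.1 times its depth. Protein-coding genes held 80.2%, 82.2% and 83.4% of the summed FPKM in the PSA day 1 libraries and 11.5% at day 0, although the coding sums themselves were 578666, 526744 and 483405 FPKM in PSA day 1 libraries and 590958 FPKM at day 0. Genes listed at 0 numbered 2663, 2531 and 2073 in the PSA day 1 libraries and 7378 at day 0. The MHC class II genes H2-Aa, H2-Ab1 and H2-Eb1 and the invariant chain Cd74 were detected in every library. H2-Ab1 was at 5092, 4840 and 3434 FPKM in PSA day 1 libraries and 4529 FPKM at day 0, and Cd74 was at 8316, 8399 and 7453 FPKM in PSA day 1 libraries and 2936 FPKM at day 0. The 10 macrophage and monocyte markers summed to 147, 153 and 145 FPKM in PSA day 1 libraries and 154 FPKM at day 0, with 3 that rose and 6 that fell. That sum hides opposite moves: Lyz2 was at 69.3, 80.9 and 77.3 FPKM in PSA day 1 libraries and 29.1 FPKM at day 0, while the red pulp macrophage marker Vcam1 was at 0.094, 0.257 and 0.122 FPKM in PSA day 1 libraries and 6.87 FPKM at day 0. The complement gene C1qa was at 0.982, 0.577 and 0.209 FPKM in PSA day 1 libraries and 23.2 FPKM at day 0, and 5 of the 10 were called lower in the authors' deposited table. The 7 dendritic cell markers summed to 70.9, 76.7 and 70.6 FPKM in PSA day 1 libraries and 269 FPKM at day 0, of which the plasmacytoid marker Siglech made up 222 FPKM at day 0. Of the 6 dendritic cell markers tested, 2 rose and 4 fell. Xcr1, a marker of cross-presenting dendritic cells, was at 0, 0.0710 and 0.209 FPKM in PSA day 1 libraries and 3.84 FPKM at day 0, from about 3.61 fragments. The 2 that rose were Flt3 and Bst2. Flt3 was at 5.40, 5.19 and 5.70 FPKM in PSA day 1 libraries and 2.36 FPKM at day 0. Bst2 was at 51.3, 51.8 and 46.9 FPKM in PSA day 1 libraries and 32.1 FPKM at day 0. The part of these differences in the results below was not tested.

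**Figure D1:**
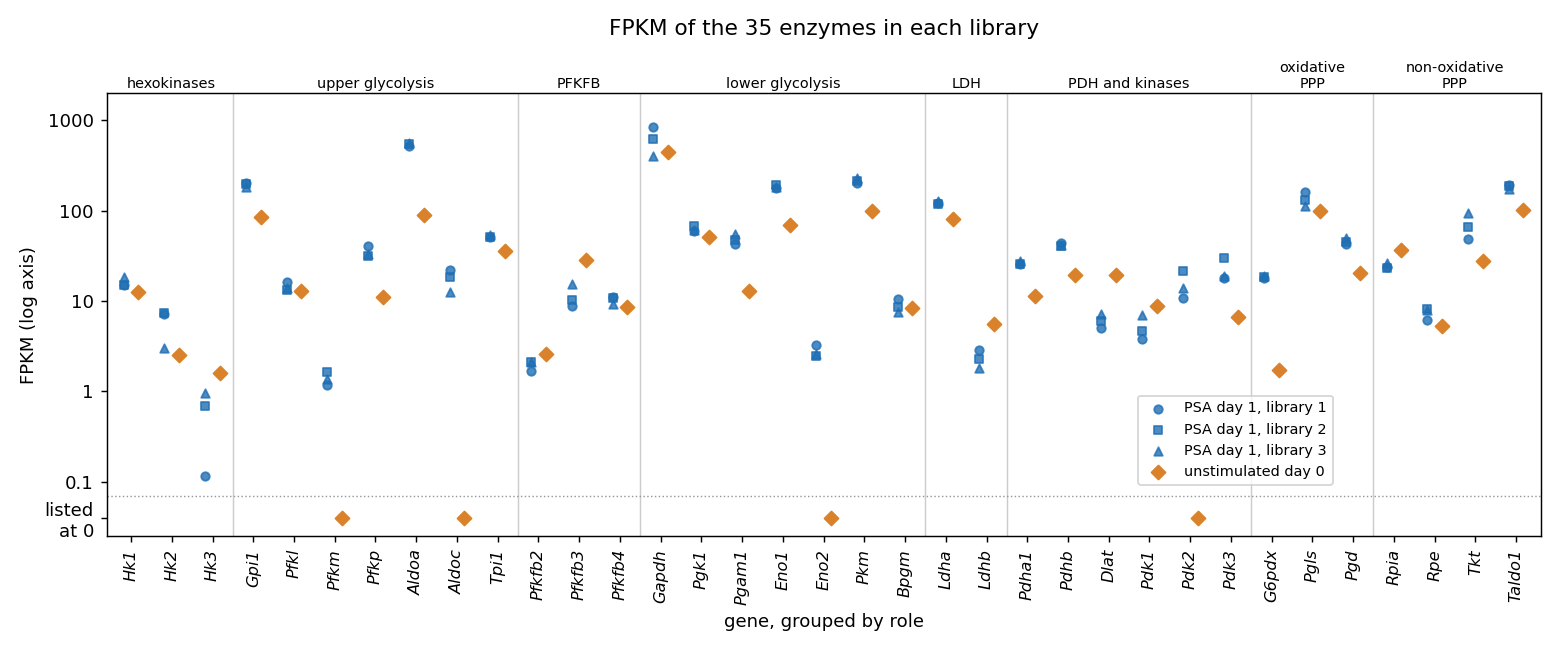
FPKM (fragment counts scaled for transcript length and library size, log axis) of the 35 enzymes in each library, ordered by role, with the 3 PSA day 1 libraries to the left of the day 0 library for each gene. The day 0 value lay below all 3 PSA day 1 values for 26 enzymes, above them for 7 and between them for 2 (Gapdh and Bpgm), against 53.7%, 31.4% and 15% of all tested genes, and 4 enzymes were listed at 0 at day 0.

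Most enzymes of the middle and lower part of glycolysis, the oxidative pentose phosphate arm and the catalytic E1 subunits of pyruvate dehydrogenase were higher after a day with PSA, and the hexokinases were not called. In limma on log2(FPKM + 1), with Benjamini-Hochberg adjustment over 13903 tested genes and a threshold of 0.05, 18 of the 35 enzymes rose, against 35% of all tested genes, and 3 fell (Ldhb, Dlat and Rpia), against 19% of all tested genes, so that 21 were called against 54% of all tested genes. The shares were 51.4% of the enzymes higher and 8.57% lower. The median log2 change of the 35 enzymes was 0.85, and that of all tested genes was 0.59. Of the 18 that rose, 4 (Pfkm, Aldoc, Eno2 and Pdk2) were listed at 0 at day 0. Without those 4, the median log2 change was 0.53 for the enzymes and 0.02 for all tested genes above 0 at day 0, of which 27.8% rose and 26.3% fell. The split of calls depends on scaling: with the median change of all tested genes set to 0, 13 enzymes were called higher and 5 lower, against 3034 higher and 3895 lower over all genes, where the unscaled values gave 4869 and 2640. Without PSA day 1 library 2, 9 enzymes were called higher and 0 lower, against 2549 and 1393 over all genes. The fit assumes that the lone day 0 library varies like the day 1 libraries, and that library's counting error is not in its standard errors.

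The authors' deposited table, which carries its own log2 fold change, read here as day 1 over day 0 from its sign at genes that differ strongly in FPKM, called 0 of the 35 enzymes at a false discovery rate of 0.05, against 0.28% of its genes called higher and 2.53% called lower (2.81% in all). Its log2 fold changes for the enzymes, in the authors' deposited table, were positive for 23 and negative for 12, with a median of 0.13 against 0.03 over all its genes. They ran from -0.99 for Hk3 to 1.95 for Eno2, and 4 enzymes had an unadjusted p under 0.05 in the authors' deposited table. The sign in the authors' deposited table was positive for 15 of the 18 enzymes that rose in FPKM and negative for all 3 that fell. The exceptions among the rises were Tpi1, Ldha and Taldo1. The deposited folds come from the same study and comparison, so shared signs are not independent evidence. Shares of signs over all genes were not counted here. The headers do not name the test or the libraries behind these folds, so the sizes in the deposited table and the FPKM changes are given side by side and not merged.

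**Figure D2:**
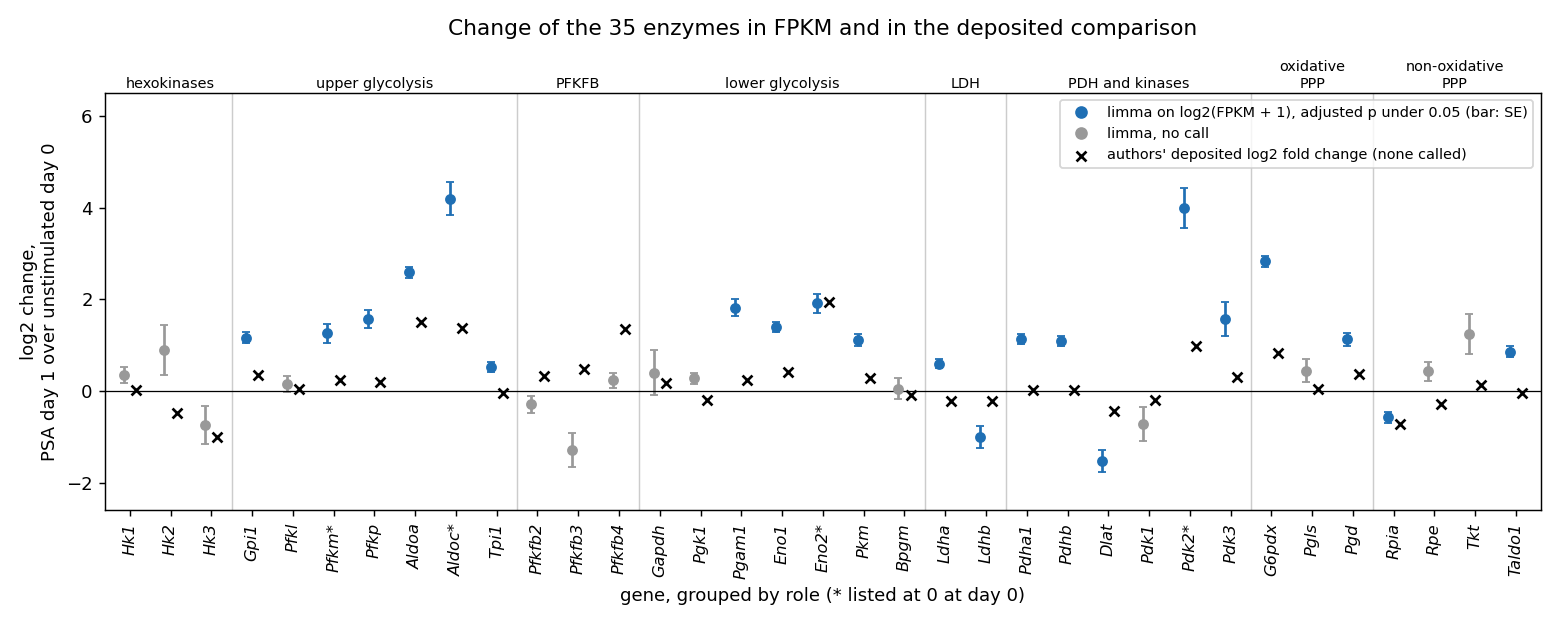
Log2 change of each enzyme, PSA day 1 over day 0, from limma on log2(FPKM + 1) with its SE (circles, blue where called and grey where not) beside the log2 fold change of the authors' deposited table (crosses). For most enzymes that rose the circle lies above the cross, as for Aldoa at 2.59 against 1.5 and G6pdx at 2.82 against 0.82.

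Aldoa, Eno1, G6pdx, Pfkp and Pgam1 passed the threshold under all 12 settings tried, and their promoters are shown for that reason. All settings use the same day 0 library and none includes its counting error, so they do not test that limit. The day 0 values of G6pdx and Pgam1 stand for about 0.975 and 4.84 fragments. How many of all genes were called under every setting was not counted. Ldha is added because its window held the most matches of the motif searched. The sequences are RefSeq promoter windows (GRCm38.p6), each printed 5′ to 3′ on the gene's strand with capitals marking the core of the hypoxia response element, ACGTG or GCGTG on either strand (CACGT or CACGC on the other). The E-box CACGTG contains ACGTG on both strands and so counts as 2 cores. Where a gene has several windows, 1 of those with most cores is given.
Pfkp (chr13:6648722-6649021, minus strand, 4 cores): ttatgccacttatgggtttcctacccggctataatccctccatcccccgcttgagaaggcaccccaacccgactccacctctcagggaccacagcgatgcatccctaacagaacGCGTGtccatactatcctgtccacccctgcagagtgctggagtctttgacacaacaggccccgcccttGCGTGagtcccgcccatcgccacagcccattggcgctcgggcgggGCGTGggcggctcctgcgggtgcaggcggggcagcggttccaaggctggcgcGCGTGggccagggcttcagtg
Aldoa (chr7:126799205-126799504, minus strand, 1 core): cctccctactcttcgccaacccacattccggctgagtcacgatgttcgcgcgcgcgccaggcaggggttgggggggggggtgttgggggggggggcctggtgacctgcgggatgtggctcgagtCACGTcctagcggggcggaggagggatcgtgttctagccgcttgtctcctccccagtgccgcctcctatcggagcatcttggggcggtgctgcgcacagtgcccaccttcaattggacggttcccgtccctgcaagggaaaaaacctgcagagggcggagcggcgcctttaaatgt
Pgam1 (chr19:41911621-41911920, plus strand, 3 cores): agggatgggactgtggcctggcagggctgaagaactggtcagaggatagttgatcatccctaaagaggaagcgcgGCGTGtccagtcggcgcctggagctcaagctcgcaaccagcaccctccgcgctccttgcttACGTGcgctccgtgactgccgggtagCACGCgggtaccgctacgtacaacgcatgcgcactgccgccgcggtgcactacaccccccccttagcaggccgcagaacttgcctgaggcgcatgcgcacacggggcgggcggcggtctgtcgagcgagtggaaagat
Eno1 (chr4:150236947-150237246, plus strand, 2 cores): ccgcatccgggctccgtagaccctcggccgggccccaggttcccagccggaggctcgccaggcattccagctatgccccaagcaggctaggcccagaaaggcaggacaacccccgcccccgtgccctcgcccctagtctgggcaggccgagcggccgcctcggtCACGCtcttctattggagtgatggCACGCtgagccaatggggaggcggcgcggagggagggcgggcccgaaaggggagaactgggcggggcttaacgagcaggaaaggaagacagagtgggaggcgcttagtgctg
Ldha (chr7:46845554-46845853, plus strand, 7 cores with 2 E-boxes): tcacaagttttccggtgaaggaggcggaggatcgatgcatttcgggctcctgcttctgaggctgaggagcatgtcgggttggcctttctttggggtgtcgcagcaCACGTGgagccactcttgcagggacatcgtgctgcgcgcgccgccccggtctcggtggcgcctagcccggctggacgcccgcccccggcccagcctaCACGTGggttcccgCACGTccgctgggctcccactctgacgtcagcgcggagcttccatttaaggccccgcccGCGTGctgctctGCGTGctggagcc
G6pdx (chrX:74428831-74429130, minus strand, 2 cores): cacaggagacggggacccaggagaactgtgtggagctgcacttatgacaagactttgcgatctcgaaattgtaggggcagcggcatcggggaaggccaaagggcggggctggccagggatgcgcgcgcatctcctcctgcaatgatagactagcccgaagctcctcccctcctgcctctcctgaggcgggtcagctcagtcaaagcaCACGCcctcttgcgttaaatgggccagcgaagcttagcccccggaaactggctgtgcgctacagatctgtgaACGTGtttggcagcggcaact
All 35 enzymes matched the promoter table, with 52 windows. At least 1 core was found in 39 windows (75%) and for 29 enzymes (82.9%), against 61.5% of 10749 windows and 67.2% of 8470 genes among tested genes, and 43.8% of all 32851 windows of the same length and 46.7% of their genes. The share was 83.3% among the enzymes that rose (15 of 18) and 82.4% among the others (14 of 17). The windows of the enzymes had a median GC content of 60.5%, against 60.3% for tested genes and 52.7% for all windows. The 6 enzymes with no core in any window were Bpgm, Dlat, Eno2, Gpi1, Rpe and Tpi1, so the group holds enzymes that rose and enzymes that did not. CACGTG was found in 5 windows (9.62%), those of Ldha, Pdk2, Pfkfb2, Pfkfb3 and Pfkm, against 10.2% for tested genes and 7.15% for all windows. A match is a run of letters in a window and not evidence that a factor binds there.

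The hexokinases trap glucose in the cell by phosphorylating it, and none of the 3 was called. Hk1, the broadly expressed form, was at 15.2, 15.2 and 18.5 FPKM in PSA day 1 libraries and 12.5 FPKM at day 0. Hk2, the form known to be induced in growing and stimulated cells, was at 7.14, 7.38 and 3.06 FPKM in PSA day 1 libraries and 2.51 FPKM at day 0. All 3 PSA day 1 values of Hk2 lay above day 0, but library 3 lay close to it, and the log2 change was 0.89 ± 0.55 (SE, adjusted p = 0.252 in limma); without library 3 it was 1.23 (adjusted p = 0.0328 in limma). Hk3, a form known from myeloid cells, was at 0.116, 0.693 and 0.951 FPKM in PSA day 1 libraries and 1.59 FPKM at day 0, and the authors' deposited table gave it -0.99 on the log2 scale. The day 0 values of Hk2 and Hk3 stand for only about 2.92 and 1.08 fragments. The summed hexokinase FPKM was nearly the same in the 3 PSA day 1 libraries, at 22.5, 23.2 and 22.5, against 16.6 at day 0. Within that sum Hk2 made up 31.8%, 31.8% and 13.6% in PSA day 1 libraries and 15.1% at day 0, so the day 0 share lay inside the day 1 range.

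Between glucose phosphate and the triose phosphates, 6 of the 7 enzymes rose and Pfkl was not called. Gpi1, the isomerase that makes fructose phosphate, was at 201, 197 and 184 FPKM in PSA day 1 libraries and 85.9 FPKM at day 0. The groups did not overlap, and Gpi1 rose 2.26-fold (log2 change 1.16 ± 0.11 SE, adjusted p = 0.00743 in limma). The authors' deposited table gave 0.34 on the log2 scale. Phosphofructokinase, the committed step of glycolysis, is built from liver, muscle and platelet type subunits. The platelet type, Pfkp, was at 40.4, 31.6 and 32.9 FPKM in PSA day 1 libraries and 11 FPKM at day 0, a 3.19-fold rise (log2 change 1.58 ± 0.19 SE, adjusted p = 0.0108 in limma). The liver type, Pfkl, was at 16.3, 13.1 and 13.8 FPKM in PSA day 1 libraries and 12.8 FPKM at day 0, a log2 change of 0.15 ± 0.18 (SE, adjusted p = 0.511 in limma). The muscle type, Pfkm, was at 1.18, 1.66 and 1.36 FPKM in PSA day 1 libraries and listed at 0 at day 0, and it rose with a log2 change of 1.26 ± 0.20 (SE, adjusted p = 0.018 in limma). At the mean PSA day 1 level, the depth of the day 0 library would give Pfkm about 0.85 fragments, so a 0 there is within counting error. The subunit make-up differed accordingly: Pfkp made up 69.8%, 68.2% and 68.5% of the summed phosphofructokinase FPKM in PSA day 1 libraries and 46.1% at day 0, while Pfkl made up 28.2%, 28.2% and 28.7% in PSA day 1 libraries and 53.9% at day 0. These shares are not affected by scaling between libraries, and they varied by less than 2 percentage points among the PSA day 1 libraries. The day 0 shares rest on about 9.60 Pfkp and 10.1 Pfkl fragments, each with a 95% counting interval of 4.8 to 18.4, so which subunit was the larger at day 0 is not resolved at this depth.

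Aldoa, the main aldolase outside liver and brain, had the largest rise among the enzymes with an FPKM above 100. It was at 511, 544 and 558 FPKM in PSA day 1 libraries and 88.3 FPKM at day 0. The 3 PSA day 1 values lay close together and far above day 0, a 6.08-fold rise with a 95% counting interval of 4.24 to 9.11 (log2 change 2.59 ± 0.12 SE, adjusted p = 0.00334 in limma). In the authors' deposited table Aldoa had a log2 fold change of 1.5 and the lowest false discovery rate of the 35 enzymes, 0.192. Aldoc, the brain aldolase, was at 21.9, 18.4 and 12.7 FPKM in PSA day 1 libraries and listed at 0 at day 0, and it rose (log2 change 4.19 ± 0.36 SE, adjusted p = 0.00606 in limma). At the PSA day 1 level about 10.4 fragments of Aldoc would have been counted at the depth of the day 0 library. The authors' deposited table gave 1.37 on the log2 scale, a finite value although the FPKM was listed at 0. Aldoc was thus 4.10%, 3.28% and 2.23% of the summed aldolase FPKM in PSA day 1 libraries and 0% at day 0. Tpi1, which interconverts the triose phosphates that aldolase releases, was at 50.7, 50.7 and 53.9 FPKM in PSA day 1 libraries and 35.5 FPKM at day 0, a smaller rise (log2 change 0.53 ± 0.10 SE, adjusted p = 0.0273 in limma). Its change was -0.06 with the median change of all tested genes set to 0, and its counting interval of 0.838 to 2.86 holds 1. The ratio of Aldoa to Tpi1 within a library was 10.1, 10.7 and 10.3 in PSA day 1 libraries and 2.49 at day 0.

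The PFKFB enzymes make and break the fructose bisphosphate that activates phosphofructokinase, and none of the 3 was called. Pfkfb3, the form with the highest ratio of making to breaking activity, was at 8.91, 10.2 and 15.5 FPKM in PSA day 1 libraries and 28.7 FPKM at day 0. All 3 PSA day 1 values were below day 0, yet the spread among them left a log2 change of -1.28 ± 0.36 (SE, adjusted p = 0.0588 in limma). The call turned with processing: Pfkfb3 was called lower under 4 of the 12 settings. The ratio of PSA day 1 to day 0 was 0.401, with a counting interval of 0.291 to 0.636 from about 29.1 fragments at day 0, while the authors' deposited table gave 0.47 on the log2 scale, the opposite sign. Pfkfb4 was at 11, 10.9 and 9.22 FPKM in PSA day 1 libraries and 8.66 FPKM at day 0, a log2 change of 0.23 ± 0.16 (SE, adjusted p = 0.305 in limma). For Pfkfb4 the authors' deposited table gave 1.36 on the log2 scale, at a false discovery rate of 0.261. Pfkfb2 was at 1.67, 2.10 and 2.12 FPKM in PSA day 1 libraries and 2.61 FPKM at day 0. Pfkfb3 made up 41.3%, 44.0% and 57.7% of the summed PFKFB FPKM in PSA day 1 libraries and 71.8% at day 0, and Pfkfb4 made up 50.9%, 47.0% and 34.4% in PSA day 1 libraries and 21.6% at day 0.

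**Figure D3:**
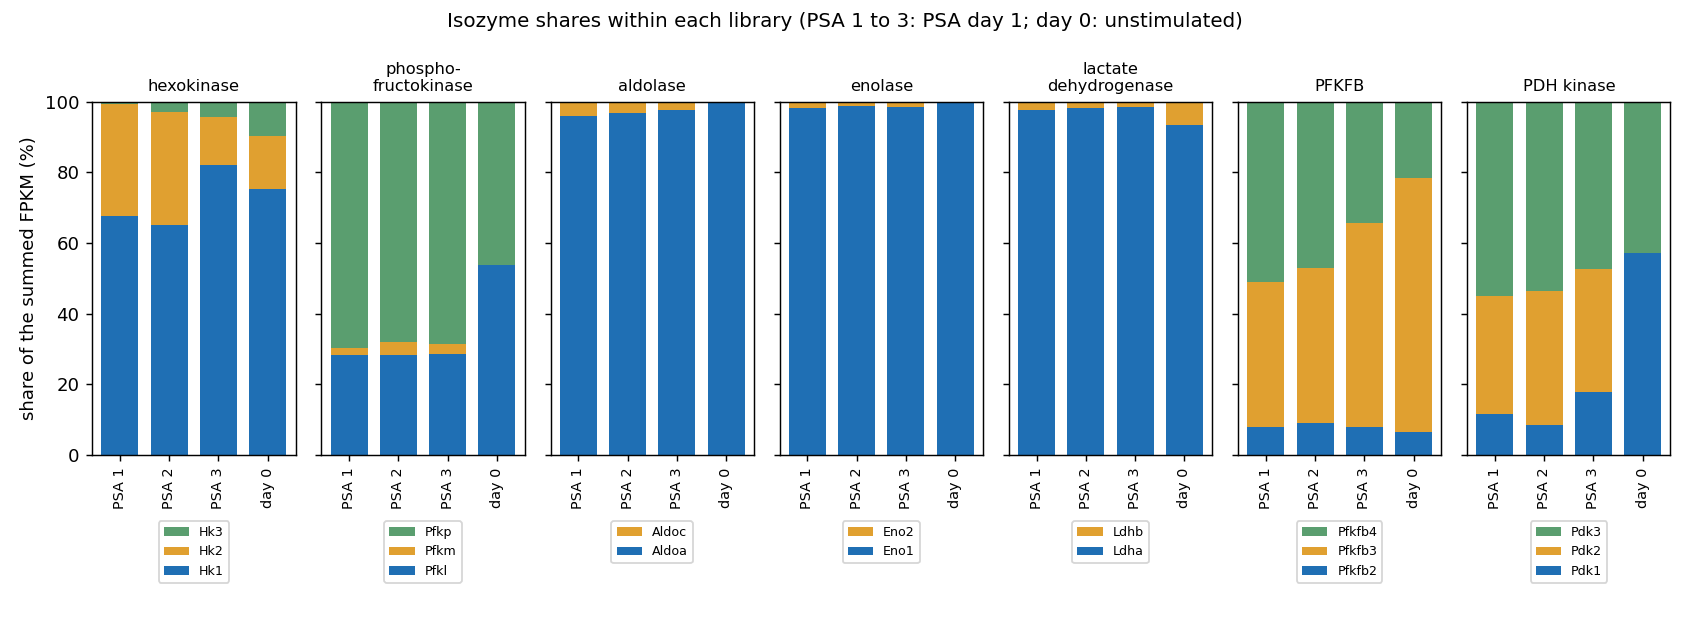
Share of each isozyme in the summed FPKM of its enzyme step (percent, stacked bars) in the 3 PSA day 1 libraries and, at the right of each panel, the day 0 library. Pfkp holds the larger share of phosphofructokinase in PSA day 1 libraries (69.8%, 68.2% and 68.5%, against 46.1% at day 0 from about 9.60 fragments), and Pdk2 is seen only in the PSA day 1 bars.

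From triose phosphate to pyruvate, Pgam1, Eno1, Eno2 and Pkm rose, and Gapdh, Pgk1 and Bpgm were not called. Gapdh, often taken as a reference gene, was at 834, 616 and 402 FPKM in PSA day 1 libraries and 447 FPKM at day 0. The day 0 value lay inside the PSA day 1 range, and the PSA day 1 libraries differed among themselves 2.08-fold, so the log2 change of 0.40 ± 0.49 (SE, adjusted p = 0.524 in limma) was within their spread. The 6 erythroid markers had the same order among PSA day 1 libraries, with a summed FPKM of 4694, 2824 and 1830 in PSA day 1 libraries and 3377 at day 0; their part in the Gapdh values was not tested. Pgk1, which makes ATP in the step after Gapdh, was at 58.9, 66.7 and 60.2 FPKM in PSA day 1 libraries and 50.9 FPKM at day 0 (log2 change 0.28 ± 0.13 SE, adjusted p = 0.154 in limma). Bpgm, which makes the bisphosphoglycerate that red cells use to release oxygen from haemoglobin, was at 10.6, 8.48 and 7.62 FPKM in PSA day 1 libraries and 8.46 FPKM at day 0. Bpgm thus also had its highest value in library 1 and its lowest in library 3. That order is not particular to Gapdh and Bpgm: Aldoc, Pgls, Gpi1, Taldo1, Ldhb and Pfkfb4 had it too. The FPKM summed over all genes also had it, at 721825, 640710 and 579671 in PSA day 1 libraries 1, 2 and 3.

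Pgam1, the broadly expressed phosphoglycerate mutase, was at 42.8, 46.8 and 54.8 FPKM in PSA day 1 libraries and 12.9 FPKM at day 0. It rose 3.73-fold (log2 change 1.81 ± 0.19 SE, adjusted p = 0.00792 in limma), with a counting interval of 1.57 to 11.4 because about 4.84 fragments stand behind the day 0 value. Eno1, the main enolase, was at 178, 191 and 182 FPKM in PSA day 1 libraries and 69.5 FPKM at day 0, a 2.64-fold rise with a counting interval of 1.83 to 3.89 (log2 change 1.39 ± 0.11 SE, adjusted p = 0.00518 in limma). Both groups of values were far apart relative to the spread of the PSA day 1 libraries. Eno2, the neuronal enolase, was at 3.27, 2.48 and 2.58 FPKM in PSA day 1 libraries and listed at 0 at day 0 (log2 change 1.91 ± 0.21 SE, adjusted p = 0.00868 in limma), where about 1.64 fragments would have been counted at the PSA day 1 level. For Eno2 the authors' deposited table gave a log2 value of 1.95, which was the highest of the 35 enzymes. Eno1 made up 98.2%, 98.7% and 98.6% of the summed FPKM of Eno1 and Eno2 in PSA day 1 libraries and 100% at day 0. Pkm, the pyruvate kinase of most tissues, was at 203, 211 and 231 FPKM in PSA day 1 libraries and 98.6 FPKM at day 0. It rose 2.18-fold, with a counting interval of 1.66 to 2.94 from about 50.6 fragments at day 0 (log2 change 1.11 ± 0.13 SE, adjusted p = 0.00983 in limma). Gapdh, Pgk1, Pgam1, Eno1, Aldoa, Tpi1 and Ldha are known to have processed pseudogenes, and how reads that fit several copies were shared out is not given in the sources used here, so these values are uncertain to that extent.

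At the lactate step, Ldha rose and Ldhb fell. Ldha, the form that favours making lactate, was at 121, 119 and 128 FPKM in PSA day 1 libraries and 80.6 FPKM at day 0. The groups did not overlap, and Ldha rose 1.52-fold with a counting interval of 1.07 to 2.25 (log2 change 0.60 ± 0.11 SE, adjusted p = 0.0211 in limma). With the median change of all tested genes set to 0, its change was 0.01, and the authors' deposited table gave it a log2 fold change of -0.21. Ldhb, the form that favours using lactate, was at 2.85, 2.29 and 1.83 FPKM in PSA day 1 libraries and 5.59 FPKM at day 0 (log2 change -1.0 ± 0.25 SE, adjusted p = 0.0435 in limma). Only about 1.54 fragments stand behind the day 0 value, and the ratio of 0.416 has a counting interval of 0.0782 to 2.64, which holds 1. The ratio of Ldha to Ldhb was 42.7, 52.1 and 69.8 in PSA day 1 libraries and 14.4 at day 0.

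Pyruvate dehydrogenase is built from E1 subunits that remove carbon dioxide from pyruvate and an E2 core that passes the acetyl group on, and its subunits did not move together. Pdha1, the E1 alpha subunit, was at 26, 25.5 and 27.9 FPKM in PSA day 1 libraries and 11.5 FPKM at day 0, a 2.30-fold rise (log2 change 1.14 ± 0.12 SE, adjusted p = 0.00796 in limma). Pdhb, the E1 beta subunit, was at 44.3, 40.6 and 41.4 FPKM in PSA day 1 libraries and 19.2 FPKM at day 0, a 2.2-fold rise (log2 change 1.10 ± 0.11 SE, adjusted p = 0.00794 in limma). The day 0 values of Pdha1 and Pdhb stand for about 6.90 and 6.12 fragments. Their counting intervals are 1.11 to 5.71 and 1.02 to 6.11. The E1 folds are thus close in value, but how alike they are is not resolved at this depth. The authors' deposited table gave log2 fold changes of 0.01 and 0.03 for the E1 subunits. Dlat, the E2 subunit, was at 4.98, 5.98 and 7.23 FPKM in PSA day 1 libraries and 19.2 FPKM at day 0. Dlat fell (log2 change -1.53 ± 0.24 SE, adjusted p = 0.0167 in limma), and its ratio of 0.316 had a counting interval of 0.201 to 0.588, the only one of the 3 falls whose interval excluded 1. The ratio of Pdha1 to Dlat within a library was 5.22, 4.26 and 3.86 in PSA day 1 libraries and 0.597 at day 0. The day 0 ratio rests on about 6.90 Pdha1 and 16.4 Dlat fragments.

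The pyruvate dehydrogenase kinases phosphorylate E1 and so switch the complex off. Pdk1, a form known to be induced by low oxygen, was at 3.78, 4.65 and 7.07 FPKM in PSA day 1 libraries and 8.87 FPKM at day 0, a log2 change of -0.71 ± 0.37 (SE, adjusted p = 0.191 in limma). Pdk2, a broadly expressed form, was at 10.9, 21.3 and 14.0 FPKM in PSA day 1 libraries and listed at 0 at day 0, and it rose (log2 change 3.98 ± 0.43 SE, adjusted p = 0.00864 in limma). About 7.29 fragments of Pdk2 would have been counted at day 0 at the PSA day 1 level, and the authors' deposited table gave it a log2 fold change of 0.98. Pdk3 was at 17.9, 30.1 and 18.8 FPKM in PSA day 1 libraries and 6.66 FPKM at day 0, and it rose with a log2 change of 1.57 ± 0.37 (SE, adjusted p = 0.0405 in limma). Its ratio was 3.35, and the counting interval was 1.11 to 15.9 from about 2.97 fragments at day 0. Pdk3 was called under 7 of the 12 settings, and not with the median change of all tested genes set to 0 (0.97, adjusted p = 0.116 in limma). Pdk2 and Pdk3 were both highest in library 2. The kinase make-up differed in these values: Pdk1 made up 11.6%, 8.29% and 17.7% of the summed kinase FPKM in PSA day 1 libraries and 57.1% at day 0, while Pdk2 made up 33.3%, 38.0% and 35% in PSA day 1 libraries and 0% at day 0. The day 0 shares rest on about 9.70 Pdk1 and 2.97 Pdk3 fragments, so which kinase was the largest at day 0 is not resolved at this depth.

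In the oxidative pentose phosphate arm, G6pdx and Pgd, which each reduce NADP+ to NADPH, rose. G6pdx, the rate-limiting dehydrogenase, was at 18, 18.6 and 18.7 FPKM in PSA day 1 libraries and 1.74 FPKM at day 0. The PSA day 1 values varied less than those of any other enzyme here (coefficient of variation 2.18%), and G6pdx rose (log2 change 2.82 ± 0.11 SE, adjusted p = 0.00309 in limma). The day 0 value stands for about 1 fragment (0.975), so the ratio of 10.6 has a counting interval of 1.85 to 409; the authors' deposited table gave a log2 fold change of 0.82 at a false discovery rate of 0.615. Pgls, the lactonase between the dehydrogenases, was at 162, 132 and 112 FPKM in PSA day 1 libraries and 97.9 FPKM at day 0, a log2 change of 0.45 ± 0.26 (SE, adjusted p = 0.226 in limma). Pgd was at 42.7, 44.9 and 49.3 FPKM in PSA day 1 libraries and 20.3 FPKM at day 0, a 2.24-fold rise with a counting interval of 1.17 to 4.52 (log2 change 1.13 ± 0.13 SE, adjusted p = 0.0099 in limma). Pgls thus stood far above both dehydrogenases per length in every library.

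The non-oxidative arm was mixed, with 1 rise, 1 fall and 2 enzymes with no call. Taldo1, transaldolase, was at 192, 188 and 173 FPKM in PSA day 1 libraries and 101 FPKM at day 0, a 1.82-fold rise with a counting interval of 1.26 to 2.70 (log2 change 0.85 ± 0.12 SE, adjusted p = 0.0137 in limma). With the median change of all tested genes set to 0, the change was 0.26 and not called (adjusted p = 0.166 in limma), and the authors' deposited table gave it a log2 fold change of -0.04. Tkt, transketolase, was at 48.0, 65.6 and 93.3 FPKM in PSA day 1 libraries and 27.5 FPKM at day 0. Every PSA day 1 value of Tkt was above day 0, but their spread left a log2 change of 1.25 ± 0.44 (SE, adjusted p = 0.0919 in limma), and the call was gained where an FPKM of at least 1 was asked of every library. Rpia, the isomerase that makes ribose phosphate, was at 23.9, 23.4 and 26.3 FPKM in PSA day 1 libraries and 36.9 FPKM at day 0. Rpia fell (log2 change -0.57 ± 0.12 SE, adjusted p = 0.0336 in limma), with a ratio of 0.664 and a counting interval of 0.404 to 1.26, which holds 1, and the authors' deposited table gave -0.71. Rpe, the epimerase of the same arm, was at 6.21, 8.13 and 7.92 FPKM in PSA day 1 libraries and 5.23 FPKM at day 0 (log2 change 0.43 ± 0.21 SE, adjusted p = 0.174 in limma).

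**Figure D4:**
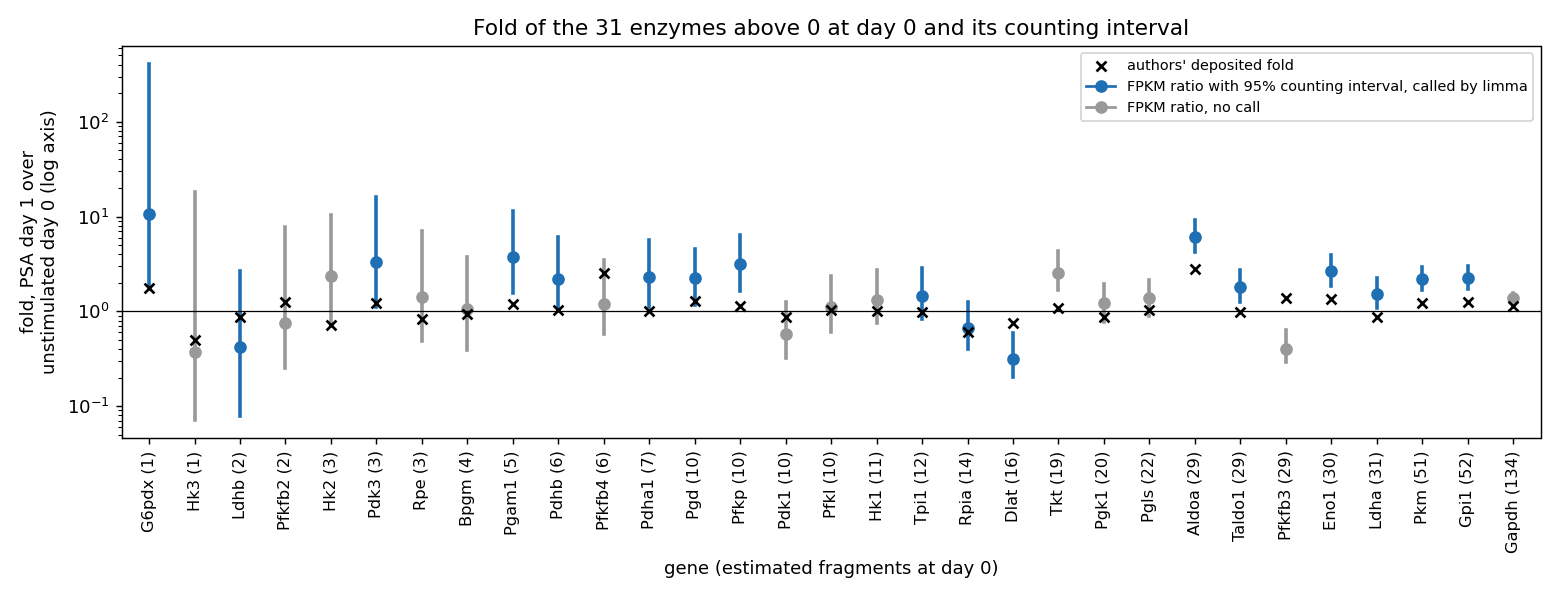
Ratio of mean PSA day 1 FPKM to day 0 FPKM (log axis) with its 95% counting interval for the 31 enzymes above 0 at day 0, ordered by the estimated fragments behind the day 0 value (in brackets), with the fold of the authors' deposited table as crosses. The interval narrows from 1.85 to 409 for G6pdx, with about 1 fragment at day 0, to 1.10 to 1.56 for Gapdh, with about 134.

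The depth of the day 0 library limits these folds unevenly. The day 0 value of 19 of the 35 enzymes, those listed at 0 included, stands for fewer than 10 estimated fragments, and that of 3 enzymes (Gpi1, Pkm and Gapdh) for at least 50. Among the 17 called enzymes above 0 at day 0, the counting interval of the ratio excluded 1 for 14, which were 13 of 14 rises (all but Tpi1) and Dlat. The call and the interval use the same day 0 value. The like share over all called genes was not counted, so 14 of 17 is not shown to be particular to these enzymes. These intervals cover counting error only and rest on the longest coding transcript of each gene. The counts depend on that length: with the length of all exons together, 15 enzymes were under 10 fragments and 7 were at 50 or more. Genes listed at 0 at day 0 are not rare at this depth: 460 genes had an FPKM of at least 10 in every PSA day 1 library and 0 at day 0. Their median on the log2 scale was 0.54 in the authors' deposited table, with 8 called higher and 0 lower.

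**Figure D5:**
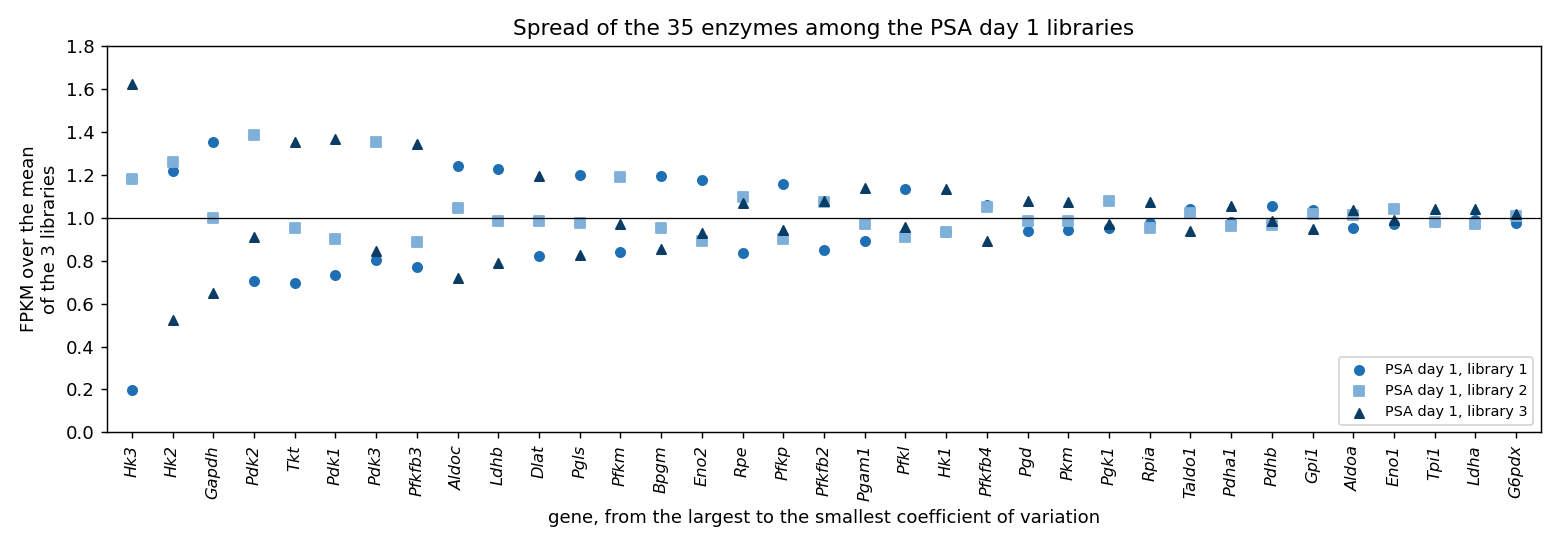
FPKM of each enzyme in each PSA day 1 library divided by the mean of the 3, with enzymes ordered by their coefficient of variation. The points spread from 72.9% for Hk3 and 41.5% for Hk2 at the left down to 2.18% for G6pdx at the right.

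The spread among the PSA day 1 libraries differed between enzymes. For the 25 enzymes with a mean PSA day 1 FPKM of at least 10, the median coefficient of variation was 7.30%, against 13% over 5878 tested genes above the same floor. The sets were not matched for FPKM above that floor, and the part of expression level in this difference was not tested. The largest coefficients were those of Hk3 (72.9%), Hk2 (41.5%), Gapdh (35%), Pdk2 (34.9%), Tkt (33.1%) and Pdk1 (33.0%). Library 3 was the highest for Tkt and Pdk1 and the lowest for Gapdh and Hk2, so no library stood at one end for all of them.

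Related genes outside the 35 were counted by list, beside 35% of all tested genes that rose and 19% that fell. The share that rose was 40% for other glycolytic genes and 33.3% for pentose phosphate and ribose use (11.1% fell). It was 25% for glycogen and nucleotide sugars and 50% for other pyruvate dehydrogenase genes (37.5% fell). Several of these shares lie near or below that of all tested genes. Of the 35 called genes of these lists above 0 at day 0, the counting interval of the ratio excluded 1 for 18. Of 15 tested genes for other glycolytic isozymes and for entry and exit steps, 6 rose and the others were not called, with a median log2 change of 0.88. Eno3, the muscle enolase, was at 48.1, 48.0 and 46.5 FPKM in PSA day 1 libraries and 3.28 FPKM at day 0 and rose (log2 change 3.50 ± 0.10 SE, adjusted p = 0.00287 in limma). Eno3 was thus above Eno2 per length in every PSA day 1 library. Its day 0 value stands for about 1.08 fragments, and the ratio has a counting interval of 2.80 to 619. The order of Eno3 and Eno2 at day 0 is therefore not resolved at this depth. Adpgk, an ADP-dependent glucokinase, rose by 1.22 on the log2(FPKM + 1) scale, with a counting interval of 0.957 to 9.08, which holds 1. Pgp, a phosphatase of glycolytic side products, and Khk, ketohexokinase, rose by 3.59 and 2.69 on that scale from a listed 0. At the PSA day 1 level, Pgp and Khk would have given about 6.19 and 1.85 fragments at day 0. Their log2 values in the authors' deposited table were 0.29 and -0.57. Of the other pyruvate dehydrogenase subunits and regulators, 4 of 8 rose and 3 fell (median log2 change -0.03). The largest changes were the rises of the E3 binding subunit Pdhx (2.05, listed at 0 at day 0) and of the E3 subunit Dld (2.01), and the falls of Pdpr (-2.19) and Pdp2 (-2.11), which belong to the phosphatases that switch the complex back on. Pdhx would have given about 1.67 fragments at day 0 at the PSA day 1 level, and the authors' deposited table gave it -0.07 on the log2 scale. Of 9 other genes of pentose phosphate and ribose use, 3 rose and 1 fell (median 0.27). Shpk rose by 1.56 from a listed 0, where about 1.18 fragments would have been counted at the PSA day 1 level. Idnk rose by 1.07 and Prps2, which makes the ribose donor for nucleotides, by 0.67, and the ribokinase Rbks had a log2 change of -1.52. Of 12 glycogen and nucleotide sugar genes, 3 rose and the others were not called (median 0.37). The rises were those of the glycogen primer Gyg (4.0, listed at 0 at day 0), the glycogen phosphorylase Pygm (2.63) and the hexosamine enzyme Gfpt1 (1.16). For Gfpt1 the counting interval, 0.841 to 25.4, holds 1. Gyg would have given about 6.09 fragments at day 0 at the PSA day 1 level, and the authors' deposited table gave it 0.20 on the log2 scale.

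Of 22 tested genes of the tricarboxylic acid cycle and nearby steps, 16 rose and the others were not called. That was 72.7% higher, against 35% of all tested genes, with a median log2 change of 1.09 against 0.59. The cycle burns the acetyl-CoA that pyruvate dehydrogenase makes. The list also holds genes outside the mitochondrial cycle, such as Acly and the cytosolic form Idh1. The largest rises were those of the isocitrate dehydrogenases Idh2 (4.69) and Idh1 (2.54), both listed at 0 at day 0, of Idh3b (2.77) and of the succinate dehydrogenase subunit Sdhb (2.29). At the PSA day 1 level, about 9.24 fragments of Idh2 and 2.34 of Idh1 would have been counted at day 0. For Idh2, Idh1, Idh3b and Sdhb the authors' deposited table gave -0.01, 0.31, 0.76 and 0.45 on the log2 scale. The median of this list was 0.22 as a log2 value of the authors' deposited table. Of 15 tested genes of the HIF pathway and other regulators of glycolytic transcription, 4 rose and 3 fell, with a median log2 change of -0.40. The shares were 26.7% higher and 20% lower, against 35% and 19% of all tested genes. Egln1, an oxygen sensor that marks HIF for breakdown, rose by 1.69 and Sirt6, a deacetylase known to hold glycolytic genes down, by 1.64, while Bnip3, a known HIF target, had a log2 change of -1.50. The day 0 values of Egln1 and Sirt6 stand for about 1.01 and 1.13 fragments, and their counting intervals, 0.879 to 196 and 0.776 to 173, hold 1. The authors' deposited table gave Egln1 -0.20 and Sirt6 0.82 on the log2 scale. Myc, a transcription factor known to drive glycolytic genes, was at 20.6, 24.0 and 28.1 FPKM in PSA day 1 libraries and 78.1 FPKM at day 0, and it fell (log2 change -1.66 ± 0.22 SE, adjusted p = 0.0119 in limma). Myc was also called lower in the authors' deposited table, at -2.44 on the log2 scale, and was the only gene of these lists called there.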

How the data were processed

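RNA of 3 PSA day 1 libraries and 1 day 0 library was sequenced on an Illumina HiSeq. Per the labels' protocols, the 3' adaptor was removed, reads under 10 nt were left out, and the authors computed FPKM with Cufflinks. The submitters' processing notes name cutadapt, TopHat 1.4.1, Cufflinks 2.2.1, Cuffdiff and GRCm38.p6; strand handling is not given in the sources used here. Per the file headers, the authors' deposited table also holds log2 fold changes, log2 mean abundances (logCPM), p-values and false discovery rates. The labels name Cuffdiff at a q-value of 0.05, but the headers do not name the test behind these columns.

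FPKM were tested with limma 3.58.1 (trend, R 4.3.3) on log2(FPKM + 1) for genes that reached FPKM 1 in some library, with 2 residual and 1.27 prior degrees of freedom. Changes on that scale understate those of low genes, while a fold is a ratio of FPKM means. The script was tested on simulated data. Depth was estimated from the FPKM step of 1 fragment over 1182 genes with a single transcript in GENCODE M21 (16232 of 17519 gene IDs matched); the step times kb was 0.332, 0.299 and 0.214 in PSA day 1 libraries and 4.74 at day 0, and 67.8%, 71.3%, 71.5% and 64.8% of low values lay within 0.1 of a whole number. An FPKM of 3 fragments in a transcript of 2 kb is 0.498, 0.448 and 0.322 in PSA day 1 libraries and 7.10 at day 0. A listed 0 can be a failed estimate, so no fold is given against it. Counting intervals (95%) are conditional exact binomial ones, for counting error only. Promoters came from RefSeq. Isozyme protein sequences were not analysed here. All 35 enzymes were named, with up to 4 called genes with the largest changes from each related list. The members and lists were chosen with earlier results of these data known. Alternatives were other pseudocounts, filters, scalings and spread estimates, and leaving out each PSA day 1 library.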

Additional observations from a re-analysis of the deposited data

How the results depend on the processing

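No paired analysis was possible because day 0 has 1 library. Aldoa, Eno1, G6pdx, Pfkp and Pgam1 were called under all 12 settings, and Aldoc, Eno2 and Pdk2 under the 11 in which they were tested. Each setting keeps the same day 0 library without its counting error, and the like share over all genes was not counted. Setting the median change of all tested genes to 0 moves every log2 change down by 0.59. Under it 13 of the 35 enzymes were called higher and 5 lower, against 3034 and 3895 of all 13903 genes, and the changes of 9 enzymes turned negative: Hk1 -0.25, Pfkl -0.44, Tpi1 -0.064, Pfkfb4 -0.36, Gapdh -0.19, Pgk1 -0.32, Bpgm -0.54, Pgls -0.15 and Rpe -0.17. Of these, only Tpi1 was called without it. Median ratio size factors turned Bpgm (-0.13) and Pfkl (-0.042), and Bpgm ran from -0.065 to 0.15 as PSA day 1 libraries were left out. An FPKM of at least 1 in every library, which leaves fewer genes and none listed at 0, gave 3041 higher and 1750 lower genes. Leaving out each PSA day 1 library in turn gave 9 to 15 enzymes higher, 0 to 3 lower, and 2549 to 4050 genes higher and 1393 to 2122 lower over all genes. The low ends came without library 2, where Gpi1, Pkm, Pgd, Pdha1, Pdhb, Taldo1, Ldha, Tpi1, Pfkm, Ldhb, Dlat and Rpia lost their calls with unchanged direction. Fewer samples enter such a fit. With other pseudocounts, no filter, equal coding sums or no trend, 17 or 18 enzymes were called higher and 2 or 3 lower, against 4363 to 5512 and 2181 to 2836 of all genes. Leaving out a library moved the mean Pfkp share of phosphofructokinase between 68.3% and 69.1% in PSA day 1 libraries; the 46.1% at day 0 rests on about 9.60 fragments. The few day 0 fragments limit each fold, and none is given against a listed 0.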
